A study of Mus musculus with 14 samples.

Results

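The 37 genes described here encode the aminoacyl-tRNA synthetases, the enzymes that join each amino acid to its tRNA. They were chosen by symbol alone: an amino acid letter followed by ars, with or without a closing 1 or 2, together with Farsa, Farsb and Eprs. All 37 were found among the 55228 symbols of the count table and all 37 passed the filter on low counts. The 17 symbols that end in 2 were taken as mitochondrial enzymes and the other 20 as cytosolic ones.

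Protein synthesis runs in 2 compartments of an animal cell, and both need charged tRNA. Cytosolic synthetases serve the ribosomes that translate nuclear mRNA, and mitochondrial synthetases, also encoded in the nucleus, serve the ribosomes that make a few respiratory chain subunits inside the organelle. Gars and Kars each encode both a cytosolic and a mitochondrial form, and Eprs encodes an enzyme that charges glutamate and proline tRNA. Several cytosolic synthetases are held together in a large multi-synthetase complex, and a number of them are known targets of ATF4, the transcription factor of amino acid shortage.

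The cells were mouse tail epidermis cells of genotype Lrig1CreER/Rosa-TdTomato, in which Cre driven from Lrig1, active in stem cells of the upper hair follicle, switches on a red fluorescent label that daughter cells inherit. They were sorted for the surface antigen Sca1 at the time that the labels call 8w pw1 and grown for 1 week in keratinocyte medium, and the treatment label is none in every library. The distal group (6 libraries) came from the region that the study links to memory, and the control group (8 libraries) from a region outside it. Both groups share the genotype, the sort, the time and the culture, so all the values describe cultured cells. The sample descriptions divide the libraries into 4 sets, each within one region, with 2 and 4 distal libraries and 6 and 2 control libraries. No label says that libraries came from separate animals or cultures. The p-values therefore set the difference between regions against the variation among these libraries, part of which may be technical. If libraries of a set share an animal or culture, the p-values are too small.

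Distal libraries held 2137934 to 4513518 counts and control libraries 4515646 to 7458872, so the groups did not overlap in depth. Transcript levels are given as CPM, counts divided by the library total after TMM scaling in edgeR. Summed markers of keratinocytes (Krt5, Krt14, Trp63, Itga6, Itgb4, Col17a1 and Dsg3) were at 11826 to 20051 CPM in distal and 8528 to 12199 CPM in control libraries. Krt14 and Krt5 made up most of that sum, and of the 7 markers 4 were higher in distal cells and 3 lower (Trp63 at -0.92, Itga6 at -0.83 and Dsg3 at -0.48 on the log2 scale). Gm26917, a noncoding gene that resembles ribosomal RNA, was at 9135 to 21153 CPM in distal and 5347 to 13883 CPM in control libraries. The summed fibroblast markers were at 2.30 to 88.7 CPM in distal and 0.535 to 241 CPM in control libraries, and the 5 immune markers at 0 to 1.37 CPM in distal and 0 to 0.473 CPM in control libraries. The summed melanocyte markers were at 0.458 to 5.49 CPM in distal and 0.237 to 4.36 CPM in control libraries. The summed endothelial markers were at 3.87 to 9.51 CPM in distal and 1.89 to 9.86 CPM in control libraries. Most of the endothelial sum was Kdr, with means of 6.15 CPM in distal and 4.77 CPM in control cells. Within these lists Lum, Dct, Cd3e, Cd207 and Cdh5 were at 0 in every library, and other members were not. The part of the marker, Gm26917 and depth differences in the results below was not tested. In such bulk samples, fewer cells that express a gene and less of its RNA per cell cannot be told apart.

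The first question was how many synthetase transcripts differed between distal and control cells. At an adjusted p under 0.05 in edgeR's quasi-likelihood test, 17 of the 37 synthetases were higher in distal cells, 6 were lower and 14 did not pass. That is 62.2% of the synthetases, against 48.3% of the 11757 genes tested, of which 24.3% were higher and 24.1% lower. The median log2 fold change, distal minus control, was 0.40 for the synthetases and -0.16 for all genes. Among cytosolic enzymes 10 were higher and 5 lower, with a median of 0.22, and among mitochondrial ones 7 were higher and 1 was lower, with a median of 0.55. The difference between the 2 classes was not tested. Every distal library was above every control library for 7 synthetases, a pattern of 12.7% of all tested genes, and below every control library for 1, against 5.65%.

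A large share of these differences moved with the GC content of the transcripts, as it did for genes in general. A second fit removed from each library its own trend of counts with GC content and length. In it 3 synthetases were higher in distal cells (Kars, Farsa and Ears2), 1 was lower (Iars) and 33 did not pass, against 18.9% of 11654 genes that passed. Of those genes 10.4% were higher and 8.56% lower. The medians in that fit were 0.30 for cytosolic and 0.11 for mitochondrial enzymes and 0.03 for all genes. Values from this fit are named below as values without the GC trend.

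**Figure D1:**
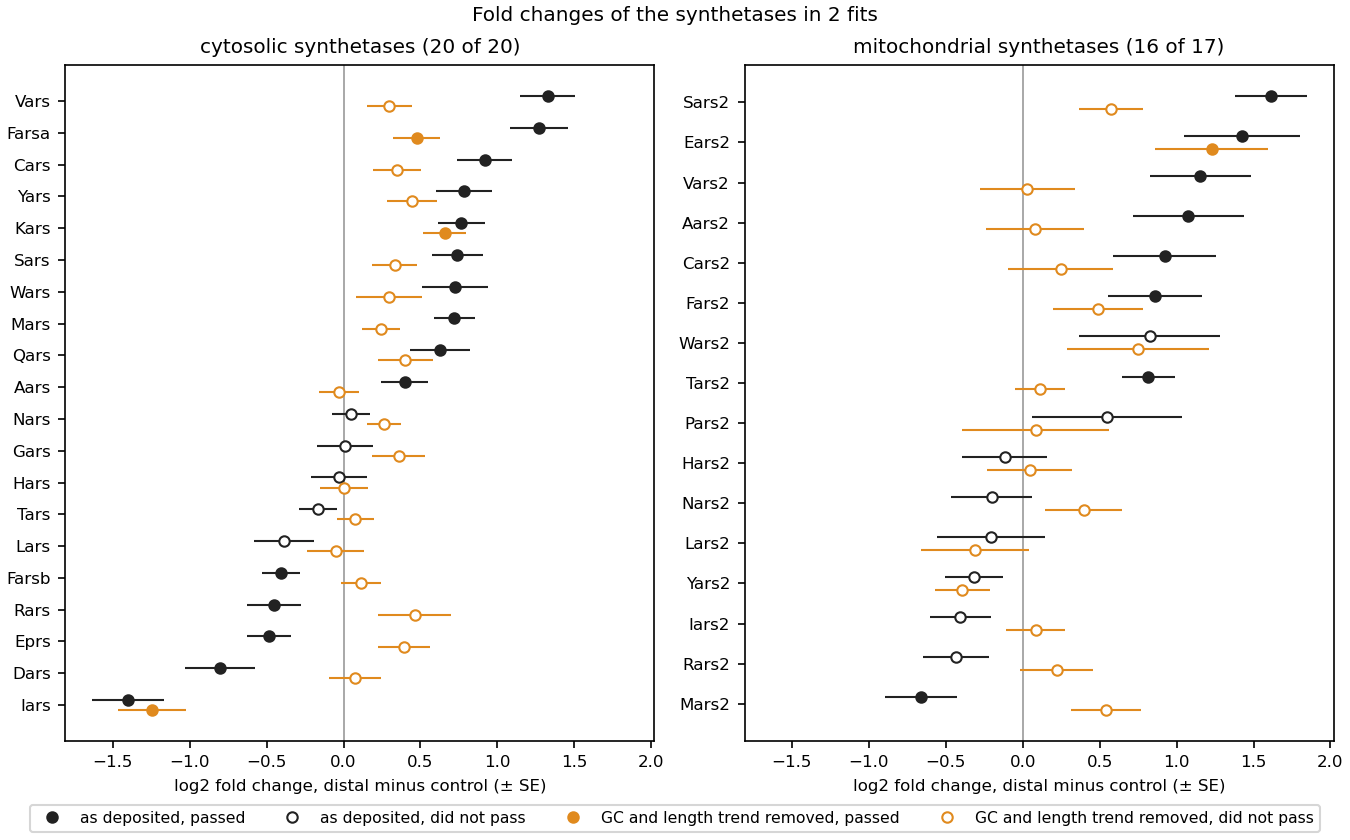
Log2 fold change, distal minus control, of the 20 cytosolic and 16 of the 17 mitochondrial synthetases, with bars of ± SE, in the fit of the deposited counts (black) and in the fit without the GC and length trend (orange). Filled points passed an adjusted p of 0.05. Iars lies at -1.40 and -1.24 in the 2 fits, while Vars lies at 1.33 and 0.30.

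Iars, which encodes the cytosolic enzyme that charges isoleucine tRNA (chromosome 13, 49682100 to 49734267, GRCm38, plus strand), fell the most. Its level was 185, 175, 366, 460.2, 215 and 202 CPM in distal libraries 1 to 6. In control libraries 1 to 8 it was 829.6, 656, 923, 438, 686, 856, 578 and 678 CPM. Distal library 4 lay just above control library 4, and otherwise every distal library was below every control library. The means were 267 ± 118 CPM in distal cells (SD, n = 6) and 706 ± 159 CPM in control cells (SD, n = 8). The log2 fold change of Iars was -1.40 ± 0.23 (SE) at an edgeR adjusted p = 0.00013. Without the GC trend it was -1.24 ± 0.22 (SE; edgeR adjusted p = 0.00086), so the fall of Iars was nearly as large without that trend. Iars was called in 30 of 31 alternative settings.

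The setting in which Iars was not called kept only libraries over 4000000 counts, which left 2 distal libraries. Its log2 fold change there was -0.79 (edgeR adjusted p = 0.0587). Those 2 libraries, distal 3 and 4, were the deepest of the distal group at 4513518 and 4381280 counts, and they held the highest Iars of that group. Between the 2 distal sets Iars did not pass (set 2 minus set 1, 0.79 on the log2 scale; edgeR adjusted p = 0.62), and none of the 37 synthetases passed between sets in either region. At an unadjusted p under 0.05 Dars and Iars differed between the distal sets and Hars and Lars between the control sets, beside 921 and 969 of all genes, and no gene passed after adjustment.

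**Figure D2:**
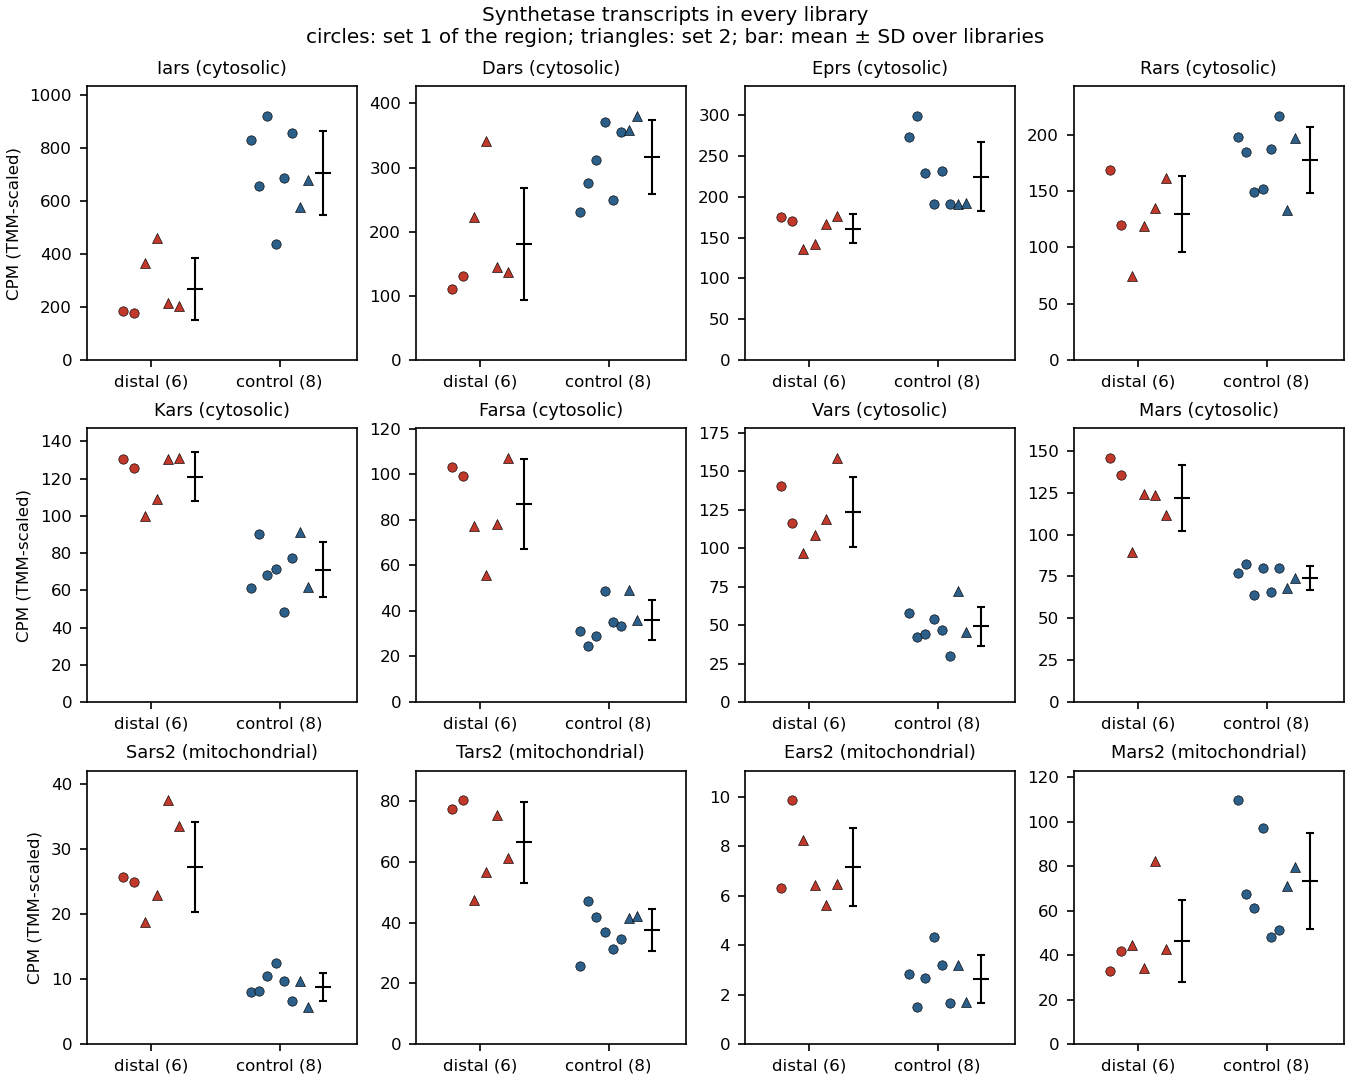
CPM in every library for 8 cytosolic and 4 mitochondrial synthetases, with the 6 distal libraries left of the 8 control libraries, circles for set 1 and triangles for set 2 of each region, and bars for mean ± SD. Distal libraries 3 and 4 (the first 2 triangles) hold the highest Iars and Dars of their group, and for Kars, Farsa, Vars, Mars, Sars2, Tars2 and Ears2 every distal point is above every control point.

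Iars is one of 8 enzymes of the multi-synthetase complex. Of these, 4 were lower in distal cells (Iars, Dars, Eprs and Rars), 3 were higher (Kars, Mars and Qars) and Lars did not pass, with a median of -0.42. Among the 12 cytosolic synthetases outside the complex 7 were higher and Farsb alone was lower, with a median of 0.56. Genes called made up 87.5% of the complex and 66.7% of the others, against 48.3% of all genes tested. Of all genes 24.3% were higher and 24.1% lower. Without the GC trend the medians were 0.32 in the complex and 0.30 outside it, and 1 complex enzyme was higher (Kars) and 1 lower (Iars). In that fit 25% of the complex and 8.33% of the others passed, against 18.9% of all genes. With the trend in place the called members of the complex went in both directions, as did genes in general. Without it 6 of the 8 lay above 0, and Kars and Iars alone passed.

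Dars, the aspartate enzyme, ranged from 110.4 to 341 CPM in distal libraries (median 141) and from 229.9 to 381 CPM in control libraries (median 333). Distal libraries 3 and 4 again held its highest distal values, 223 and 341 CPM, and the groups overlapped. The log2 fold change of Dars was -0.80 ± 0.23 (SE; edgeR adjusted p = 0.0078) and was 0.07 without the GC trend, where it did not pass (edgeR adjusted p = 0.81). Eprs was the one synthetase for which every distal library was below every control library. It ranged from 136 to 176 CPM in distal (median 168) and from 191 to 299.8 CPM in control libraries (median 211). The log2 fold change of Eprs was -0.48 ± 0.14 (SE; edgeR adjusted p = 0.0096), and without the GC trend it was 0.39 (edgeR adjusted p = 0.12). Rars, the arginine enzyme, was at 74.7 to 168 CPM in distal and 133 to 217 CPM in control libraries and had -0.45 ± 0.17 (SE; edgeR adjusted p = 0.039).

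The calls of these smaller falls were lost when some single libraries were left out. The median log2 fold change of all genes was -0.16 with every library. It was -0.073 to -0.048 without control library 2 or 4 or distal library 1, 2, 4, 5 or 6. Without any other library it was -0.17 to -0.14. The part of that shift in the lost calls was not tested. The call of Eprs was lost when control library 2 or distal library 1, 2, 4, 5 or 6 was left out, with log2 fold changes of -0.51 to -0.30 over all such omissions. Rars lost its call in 12 of the 14 omissions, all but those of control libraries 3 and 7 (-0.50 to -0.29). Farsb, a subunit gene of the phenylalanine enzyme, lost its call without control library 2 or 4 or distal library 1, 2, 4, 5 or 6 (-0.45 to -0.26). Eprs, Rars and Farsb also lost theirs with counts summed per set and without control set 1. Iars and Dars kept theirs in each of the 14 omissions. Dars was not called once each set was summed (-0.80; edgeR adjusted p = 0.058), without control set 1 (-1.03; edgeR adjusted p = 0.071), without distal set 1 (-0.52; edgeR adjusted p = 0.073) or in libraries over 4000000 counts (-0.18; edgeR adjusted p = 0.64).

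Kars, the lysine enzyme (chromosome 8, 111993443 to 112011323, minus strand), was higher in distal cells in both fits. It ranged from 99.7 to 131 CPM in distal (median 128) and from 48.3 to 91.2 CPM in control libraries (median 69.7), with no overlap. Kars had a log2 fold change of 0.77 ± 0.15 (SE) at an edgeR adjusted p = 0.00056 and 0.66 ± 0.14 without the GC trend (SE; edgeR adjusted p = 0.003). Kars was not called in libraries over 4000000 counts (0.54; edgeR adjusted p = 0.15), without control set 1 (0.66; edgeR adjusted p = 0.068), or with the trend removed and counts summed per set (0.64; edgeR adjusted p = 0.11). It was called in the other 28 of 31 settings. Mars, the methionine enzyme of the complex, ranged from 89.6 to 146 CPM in distal (median 124) and 63.7 to 82.4 CPM in control libraries (median 75.5), again with no overlap. Mars was at 0.72 ± 0.13 on the log2 scale (SE; edgeR adjusted p = 0.00031) and at 0.25 without the GC trend (edgeR adjusted p = 0.18).

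Outside the complex, Vars and Farsa had the largest differences among cytosolic enzymes. Vars, the valine enzyme (chromosome 17, 35000987 to 35016322, plus strand), ranged from 96.7 to 159 CPM in distal (median 118) and 30.04 to 72.1 CPM in control libraries (median 46.1). All 6 distal libraries were above all 8 control libraries, and the log2 fold change was 1.33 ± 0.18 (SE; edgeR adjusted p = 1.5e-05). Vars was at 0.30 without the GC trend and did not pass (edgeR adjusted p = 0.17). Farsa, the other subunit gene of the phenylalanine enzyme (chromosome 8, 84856989 to 84869257, plus strand), ranged from 56.0 to 107 CPM in distal (median 88.7) and 24.6 to 49.2 CPM in control libraries (median 34.2). Its log2 fold change was 1.27 ± 0.19 (SE; edgeR adjusted p = 4.0e-05) and 0.47 ± 0.15 without the GC trend (SE; edgeR adjusted p = 0.036). In the same enzyme Farsb had 105 ± 8.20 CPM in distal and 139 ± 15.9 CPM in control cells (SD, n = 6 and 8) and lay at -0.41 ± 0.12 on the log2 scale (SE; edgeR adjusted p = 0.011). The 2 subunit genes of one enzyme thus moved in opposite directions with the trend in place, and without it Farsb was at 0.12 (edgeR adjusted p = 0.59).

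Cars, Sars, Yars and Wars, which charge cysteine, serine, tyrosine and tryptophan tRNA, were also higher. Cars had 91.5 ± 24.6 CPM in distal and 48.4 ± 7.86 CPM in control cells (SD, n = 6 and 8), which is 0.92 ± 0.18 on the log2 scale (SE; edgeR adjusted p = 0.00043). Sars had 119 ± 30.2 CPM in distal and 71.5 ± 10.7 CPM in control cells, with 0.74 ± 0.16 (SE; edgeR adjusted p = 0.0014). Yars ranged from 40.3 to 72.1 CPM in distal and from 21.2 to 40.4 CPM in control libraries, so that the groups met at 1 library each, with 0.78 ± 0.18 (SE; edgeR adjusted p = 0.0018). Wars, known as an interferon-responsive gene, ranged from 33.0 to 71.1 CPM in distal and 17.6 to 41.6 CPM in control libraries, with 0.72 ± 0.21 (SE; edgeR adjusted p = 0.0096). None of these 4 passed without the GC trend, where they lay between 0.30 and 0.44. Qars (0.63) and Aars (0.40), for glutamine and alanine, were the remaining 2 of the 10 higher cytosolic genes, and Aars lost its call without control library 3, 5, 7 or 8 and with the set as a random block in limma-voom (0.38; adjusted p = 0.053).

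The cytosolic genes that did not pass were Gars, Hars, Lars, Nars and Tars, with log2 fold changes from -0.39 to 0.05. Gars, for glycine, ranged from 126 to 189 CPM in distal (median 136) and 91.5 to 215 CPM in control libraries (median 140.3), so the distal values lay within the control range. Its log2 fold change was 0.01 ± 0.18 (SE; edgeR adjusted p = 0.97) and 0.36 ± 0.17 without the GC trend (SE; edgeR adjusted p = 0.16). The direction of the log2 fold change of Gars and Hars turned with the scaling or with single libraries.

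Among mitochondrial enzymes, Sars2, for serine (chromosome 7, 28741992 to 28753871, plus strand), had the largest difference of all 37 genes. It ranged from 18.8 to 37.5 CPM in distal (median 25.3) and 5.73 to 12.5 CPM in control libraries (median 8.92), with every distal library above every control library. The log2 fold change was 1.61 ± 0.23 (SE; edgeR adjusted p = 2.8e-05). Without the GC trend it was 0.57 ± 0.21 (SE) and did not pass (edgeR adjusted p = 0.064). Tars2, for threonine, ranged from 47.4 to 80.5 CPM in distal (median 68.5) and 25.6 to 47.3 CPM in control libraries (median 39.2), so that the groups nearly touched. Tars2 differed by 0.82 ± 0.17 on the log2 scale (SE; edgeR adjusted p = 0.00086) and by 0.11 without the GC trend (edgeR adjusted p = 0.69).

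Ears2, the mitochondrial glutamate enzyme (chromosome 7, 122037213 to 122067263, minus strand), was the mitochondrial gene that passed in both fits. It was scarce, at 5.65 to 9.88 CPM in distal (median 6.44) and 1.49 to 4.32 CPM in control libraries (median 2.76), on 7 to 36 counts a library. Even so, no control library reached the lowest distal one. For Ears2 the log2 fold change was 1.42 ± 0.37 (SE; edgeR adjusted p = 0.0045) and 1.23 ± 0.37 without the GC trend (SE; edgeR adjusted p = 0.024). That second call rested on which transcript gave the GC content: the median over Ears2 transcripts was 52.5%, but the one with the longest coding sequence had 58.1%. With the trend fitted on longest-coding transcripts Ears2 was at 0.43 and did not pass (edgeR adjusted p = 0.44). Farsa did not pass either in that fit (0.32; edgeR adjusted p = 0.14), whereas Iars (-1.05; edgeR adjusted p = 0.0016) and Kars (0.54; edgeR adjusted p = 0.011) did. In libraries over 4000000 counts Ears2 (1.44; edgeR adjusted p = 0.10) and Farsa (0.87; edgeR adjusted p = 0.053) did not pass, and without control set 1 Ears2 did not (1.53; edgeR adjusted p = 0.088).

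Vars2, Aars2, Fars2 and Cars2 were the other mitochondrial genes that were higher, all with overlapping groups. Vars2 had 11.9 ± 4.26 CPM in distal and 5.32 ± 1.47 CPM in control cells (SD, n = 6 and 8), which is 1.15 ± 0.33 on the log2 scale (SE; edgeR adjusted p = 0.0073). Aars2 ranged from 6.19 to 23.8 CPM in distal and from 3.73 to 14.1 CPM in control libraries, with 1.08 ± 0.36 (SE; edgeR adjusted p = 0.020). Fars2 ranged from 9.64 to 17.2 CPM in distal and from 4.02 to 14.6 CPM in control libraries, with 0.86 ± 0.30 (SE; edgeR adjusted p = 0.026). The control library at 14.6 CPM stood apart from the other 7, which did not exceed 7.67 CPM. Cars2 was at 0.92 (edgeR adjusted p = 0.030) and lost its call without control library 3 or distal library 4 or 6, and with the set as a random block in limma-voom (0.78; adjusted p = 0.081). None of these 4 passed without the GC trend.

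Mars2, the methionine enzyme, was the mitochondrial gene that fell. It ranged from 32.7 to 82.4 CPM in distal (median 42.2) and from 48.1 to 109.8 CPM in control libraries (median 69.3), with distal library 5 well above the rest of its group. The log2 fold change was -0.66 ± 0.23 (SE; edgeR adjusted p = 0.027), it lost its call without control library 1, 2 or 4 or distal library 1, 2, 4 or 6 (-0.80 to -0.46), and it was 0.54 without the GC trend (edgeR adjusted p = 0.11). The other 9 mitochondrial genes did not pass, and 8 of them lay between -0.43 and 0.82. Lars2, for leucine, ranged from 3.21 to 14.2 CPM in distal (median 10.7) and 6.83 to 18.3 CPM in control libraries (median 10.2), which is -0.20 ± 0.35 on the log2 scale (SE; edgeR adjusted p = 0.65). Pars2, for proline, was the scarcest in distal cells, at 4.38 ± 1.19 CPM in distal and 3.01 ± 1.88 CPM in control cells (SD, n = 6 and 8), where Ears2 was lower still.

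For 14 amino acids the 2 compartments have separate genes of the same name. The mitochondrial gene had the higher log2 fold change in 9 of these pairs and the cytosolic gene in 5, and the 2 had the same sign in 10. In the pairs for alanine, cysteine, serine and valine both genes were higher in distal cells and passed. The methionine pair was the one in which both passed with opposite signs, at 0.72 for Mars and -0.66 for Mars2. For isoleucine the fall was large in the cytosolic gene (-1.40), and Iars2, at -0.41 ± 0.20 (SE), did not pass (edgeR adjusted p = 0.099). Differences within pairs were not tested. By structural fold, 9 of 18 class I genes were higher and 3 lower, with a median of 0.67, and 8 of 18 class II genes were higher and 2 lower, with a median of 0.22. Eprs joins both folds and was counted in neither. These are 66.7% of class I and 55.6% of class II, against 48.3% of all genes. Without the GC trend 1 class I gene was higher and 1 lower (median 0.27), and 2 class II genes were higher and 0 lower (median 0.11). That is 11.1% of each class, against 18.9% of all genes in that fit.

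The members were ordered closely by the GC content of their transcripts. Over the 37 genes the log2 fold change and GC content had a Pearson r of 0.84 and a Spearman rho of 0.88, given as a description because the values share the same libraries and genes are not independent replicates. Over 11654 tested genes the values were 0.70 and 0.73. All genes were then divided by GC content into 5 bins of nearly equal size. The 3 synthetases of bin 1, the lowest in GC (Dars, Mars2 and Rars), were all lower in distal cells. In bin 2, 2 of 8 were lower and 0 higher, in bin 3, 2 of 10 were higher and 1 lower, and in bin 4, 10 of 11 were higher. In bin 5 all 5 (Aars2, Farsa, Sars2, Vars and Vars2) were higher. Of all genes, 1242 of 2331 in bin 1 and 925 of 2331 in bin 2 were lower. In bin 3, 288 of 2330 were higher and 461 lower, and 941 of 2331 in bin 4 and 1565 of 2331 in bin 5 were higher. The medians of all genes over the 5 bins were -0.89, -0.57, -0.17, 0.50 and 1.09, and those of the synthetases -0.66, -0.41, -0.07, 0.78 and 1.27.

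Against the median of all genes in the same bin, 18 of 20 cytosolic and 14 of 17 mitochondrial genes lay above, by a median of 0.22 and 0.17 on the log2 scale. Iars lay farthest below, at -1.23, and Wars2 (0.99), Kars (0.94), Ears2 (0.93) and Qars (0.80) lay farthest above. Wars2 did not pass (edgeR adjusted p = 0.14), and of 31 alternatives it passed in 1, with the trend of longest-coding transcripts removed. It was at 23.6 and 18.1 CPM in distal libraries 4 and 5 and at 4.02 to 7.03 CPM in the other 4, against 1.66 to 8.98 CPM in control libraries, and its distal median of 6.34 CPM was below the control median of 6.74 CPM. The part of GC content in the members' differences cannot be told apart from the region, because the trend itself differs between the regions. Coding sequence shows how unlike in base composition these genes are, and the middle 60 bases of the coding sequence of 5 genes are shown for that reason, with G and C in capitals (GRCm38, GENCODE transcript with the longest coding sequence, sense strand, 5′ to 3′).
Rars: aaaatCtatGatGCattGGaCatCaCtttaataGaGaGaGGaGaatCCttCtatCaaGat
Dars: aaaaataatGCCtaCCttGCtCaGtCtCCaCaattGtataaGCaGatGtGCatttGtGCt
Iars: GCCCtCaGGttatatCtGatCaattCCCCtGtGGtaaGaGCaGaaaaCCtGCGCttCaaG
Sars2: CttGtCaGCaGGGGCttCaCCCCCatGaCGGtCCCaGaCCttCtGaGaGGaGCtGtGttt
Vars: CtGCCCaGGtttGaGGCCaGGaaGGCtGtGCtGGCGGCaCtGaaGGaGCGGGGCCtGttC

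Of these 60 bases, 20 were G or C in Rars, 23 in Dars, 29 in Iars, 35 in Sars2 and 40 in Vars. Over the whole coding sequence the share was 46.3% in Rars, 43.6% in Dars, 49.1% in Iars, 61.1% in Sars2 and 60.1% in Vars. Their log2 fold changes were -0.45, -0.80, -1.40, 1.61 and 1.33, so by whole coding sequence Iars is out of the order that the other 4 follow. The 60 bases shown do not give that order, with Rars below Dars and Sars2 below Vars. Mars2 has a coding GC content of 56.4% but a transcript value of 38.8%: its transcript has 11294 bases and its coding sequence 1758.

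**Figure D3:**
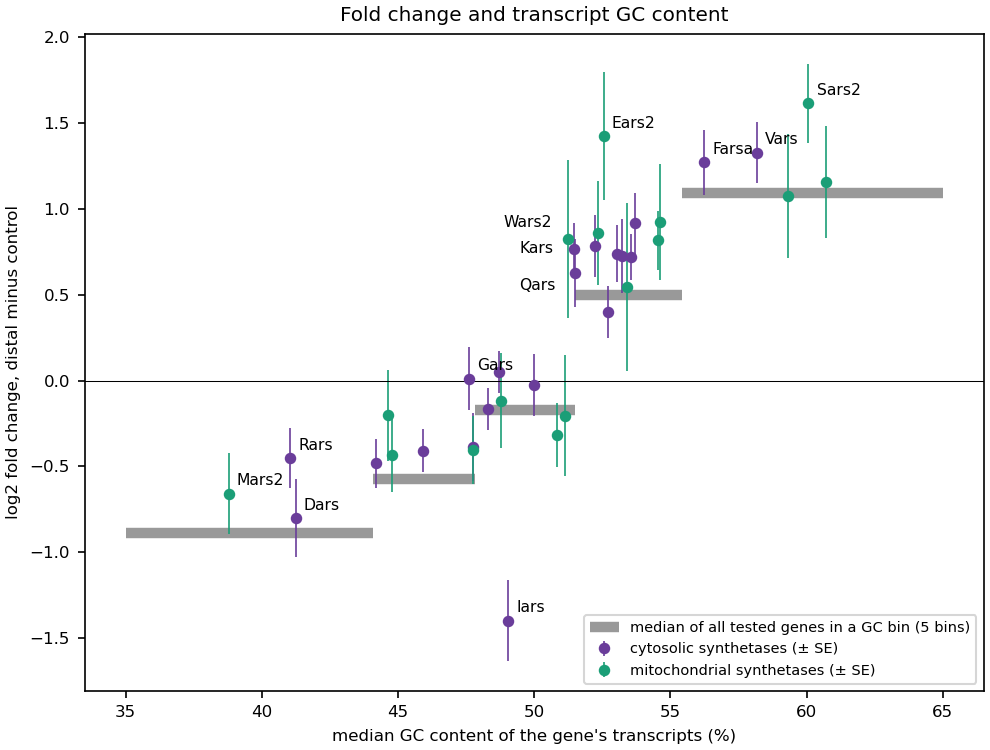
Log2 fold change, distal minus control, of 36 synthetases against the median GC content of its transcripts, with bars of ± SE; grey bars are the medians of all tested genes in 5 bins of GC content, with the outer 2 bins drawn to part of their width. The synthetases follow the grey bars from -0.89 to 1.09, with Iars far below at -1.40 and Kars, Ears2 and Wars2 above.

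Levels of different genes were compared as CPM per kb of the longest-coding transcript. The median cytosolic gene was at 44.3 CPM per kb in distal and 34.2 in control cells, and the median mitochondrial gene at 4.44 in distal and 5.34 in control cells. The mitochondrial medians of distal and control cells fell on different genes, so they do not give the change of a gene. The median log2 fold change of the mitochondrial genes was 0.55. In distal cells Nars (102), Dars (83.3) and Sars (64.02) led the cytosolic enzymes in CPM per kb, and in control cells Iars (159), Dars (145) and Nars (98.1) did. Iars was first of 20 in control cells and sixth in distal cells, at 60.4 CPM per kb. Yars2 led the mitochondrial enzymes in both groups, at 36.6 CPM per kb in distal and 45.6 in control cells, and Pars2 was last, at 1.44 in distal and 0.987 in control cells. These ranks rest on the transcript chosen for the length. Per kb of all exonic bases of a gene, Iars was at 50.7 CPM in distal cells, below Nars alone (64.01), and at 134 CPM in control cells, above the other 19. Lars2 was then last in distal cells (0.878) and Ears2 in control cells (0.513).

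**Figure D4:**
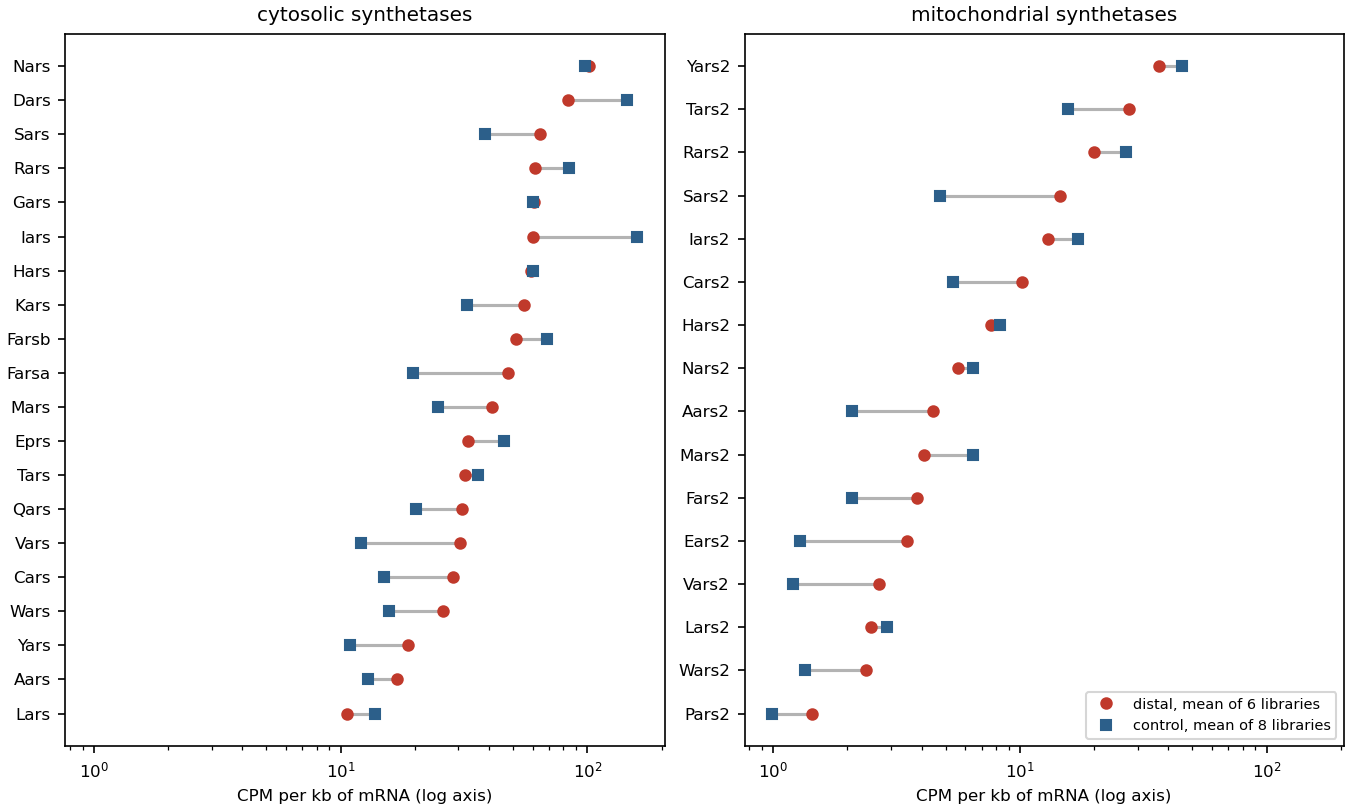
Mean level of 36 synthetases in CPM per kb of mRNA (log axis), with red circles for 6 distal and blue squares for 8 control libraries. Most cytosolic genes lie to the right of most mitochondrial ones, and Iars shows the widest gap with the control value on the right, 60.4 against 159 CPM per kb.

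Summed over the genes, the cytosolic total was lower in distal cells by more than the SD of either group, and the ranges overlapped. The 20 cytosolic genes together had 2506 ± 133 CPM in distal and 2836 ± 219 CPM in control cells (SD, n = 6 and 8), and ranged from 2307 to 2660 CPM in distal and from 2598 to 3220 CPM in control libraries. Without Iars the other 19 had 2239 ± 170 CPM in distal and 2130 ± 125 CPM in control cells, so the distal sum was not the lower one once Iars was left out. Iars alone made up 10.7% ± 4.63 of the cytosolic sum in distal and 24.7% ± 4.26 in control cells (SD). The 17 mitochondrial genes summed to 457 ± 41.4 CPM in distal and 460 ± 32.3 CPM in control cells, a difference smaller than the spread between libraries. They took 13.7% to 17.6% of all synthetase CPM in distal libraries (median 15.4%) and 12.1% to 15.3% in control libraries (median 14.3%).

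**Figure D5:**
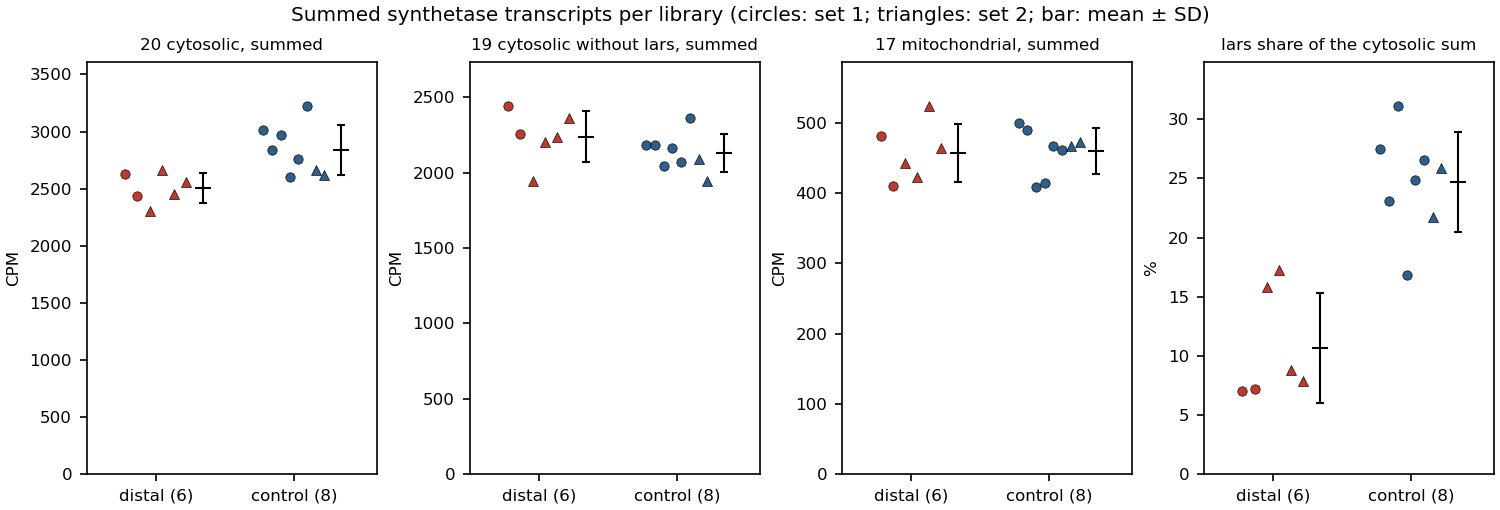
Summed CPM of the 20 cytosolic genes, of the same without Iars and of the 17 mitochondrial genes, and the share of Iars in the cytosolic sum, for 6 distal libraries (left in each panel) and 8 control libraries; circles are set 1 and triangles set 2 of a region, and bars are mean ± SD. Iars takes 7.06% to 17.3% of the sum in distal and 16.9% to 31.1% in control libraries.

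Factors that work beside the synthetases were read from 3 further lists. Of 11 tested cytosolic partners and editing factors, 2 were higher in distal cells and 1 lower, which is 27.3% against 48.3% of all genes. Aimp2, a scaffold of the multi-synthetase complex, rose to 47.0 ± 10.2 CPM in distal cells, against 17.6 ± 4.15 CPM in control cells (SD, n = 6 and 8), with every distal library above every control library. Aimp2 was at 1.41 ± 0.20 on the log2 scale and at 1.01 without the GC trend (SE; edgeR adjusted p = 2.2e-05 and 0.00093). The other scaffold genes, Aimp1 (0.02) and Eef1e1 (-0.31), did not pass. Yrdc, an enzyme of tRNA threonylcarbamoylation, was at 0.58 (edgeR adjusted p = 0.0029), and Pstk, a kinase of the selenocysteine route, was at -0.49 (edgeR adjusted p = 0.048), and neither passed without the GC trend. In that fit 2 of the 11 were again higher and 1 lower, which is 27.3% against 18.9% of all genes. Beside Aimp2 these were Dtd2, a D-aminoacyl-tRNA deacylase (0.88; edgeR adjusted p = 0.026), and Secisbp2, a factor of selenocysteine insertion (-1.03; edgeR adjusted p = 0.013).

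Of 18 mitochondrial tRNA partners 7 were higher and 3 lower, a share of 55.6% against 48.3% of all genes, with a median log2 fold change of 0.03. Mrps12, a ribosomal protein whose gene lies head to head with Sars2, was at 1.47 ± 0.16 (SE; edgeR adjusted p = 3.6e-06). Tsfm and Tufm, elongation factors of the organelle, were at 1.36 and 1.18 (edgeR adjusted p = 1.3e-05 and 0.00015). Without the GC trend Mrps12 (0.48) and Tsfm (0.69) passed and Tufm (0.35) did not, and 3 of the 18 were higher and none lower. That is 16.7% of this list, against 18.9% of all genes in that fit. The 22 mitochondrially encoded tRNA genes did not pass the filter on low counts, so their levels were not compared. Charging of tRNA was not measured in these data.

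The amino acid response list holds ATF4 and its known targets other than synthetases. Of 26 tested genes 8 were higher and 4 lower in distal cells, 46.2% against 48.3% of all genes, with a median of 0.39. Phgdh and Shmt2, enzymes of serine and glycine synthesis, were at 1.35 ± 0.17 and 1.18 ± 0.17 (SE; edgeR adjusted p = 1.1e-05 and 2.4e-05), and Slc38a2, an amino acid transporter, was at -0.82 ± 0.13 (SE; edgeR adjusted p = 7.7e-05). When the trend was removed 2 were higher and 3 lower, 19.2% against 18.9% of all genes, with a median of -0.15. The 3 lower ones were Ddit4 (-1.31; edgeR adjusted p = 0.0014), Psat1 (-0.48; edgeR adjusted p = 0.042) and Atf4. Phgdh then passed at 0.57, and Shmt2 (0.15) and Slc38a2 (0.09) did not. Atf4 itself was at 0.13 (edgeR adjusted p = 0.53) and at -0.62 without the GC trend (edgeR adjusted p = 0.010), named here after its value was seen.

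Promoter windows from 250 bases before to 50 bases after the start site were at hand for 27 of the 37 genes, 13 cytosolic and 14 mitochondrial (RefSeq, GRCm38.p6). Each was searched on both strands for 5 motifs. The amino acid response element, TGATGNAA, was found in 5 of 13 cytosolic windows (Aars, Gars, Iars, Tars and Yars) and in 0 of 14 mitochondrial ones, against 3.97% of 32851 windows in all. These sites are shown because they were found in one class only among the windows searched, with the motif in capitals on the strand of the gene. In 4 of the 5 it reads as its reverse complement, and in Yars as spelt above. The site shown lies before the start site in Gars and Tars, and after it in Aars, Iars and Yars.
Aars, chr8:111033840-111033869, plus strand: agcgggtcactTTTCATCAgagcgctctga
Gars, chr6:55037935-55038000, plus strand: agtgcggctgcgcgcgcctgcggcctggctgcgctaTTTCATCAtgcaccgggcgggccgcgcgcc
Iars, chr13:49682126-49682155, plus strand: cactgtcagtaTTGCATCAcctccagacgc
Tars, chr15:11399659-11399709, minus strand: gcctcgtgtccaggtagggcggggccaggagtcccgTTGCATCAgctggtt
Yars, chr4:129189895-129189924, plus strand: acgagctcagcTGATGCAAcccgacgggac

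The 5 genes with this motif did not share a direction, with log2 fold changes of 0.40 in Aars, 0.01 in Gars, -1.40 in Iars, -0.17 in Tars and 0.78 in Yars. The Aars window held a second match farther upstream, with 104 bases between it and the start site. Of the other motifs, the NRF1 element (GCGC, any 2 bases, GCGC) was in 3 cytosolic and 2 mitochondrial windows (6.23% of all windows), CCGGAAGT in 2 and 1 (3.89%), CACGTG in 4 and 1 (7.15%) and TGACGTCA in none (1.79%). Part of the CACGTG matches were in the same windows as the first motif, those of Aars, Iars and Tars. A match is a run of letters in the window and was not tested as a binding site.

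Some members share exonic bases with neighbours, and the sources used here do not say whether counting used strand. Aars overlaps Exosc6 on the same strand over 1326 bases, and Iars2 overlaps Rab3gap2 on the opposite strand over 2034 bases. Hars and Hars2 overlap each other by 195 bases, Mars overlaps Ddit3 by 68, Cars2 overlaps Naxd by 422, Ears2 overlaps Ubfd1 by 89, Fars2 overlaps Nrn1 by 501 and Farsb overlaps Sgpp2 by 248. Vars2 shares 465 bases, Nars2 284 and Cars 211 with noncoding genes or a pseudogene. Reads in those stretches are uncertain for these genes. Iars, Kars, Sars2, Tars2, Farsa and Vars share no exonic base with another annotated gene.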

How the data were processed

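Smart-Seq2 cDNA and Nextera XT libraries were made from small pools of cells, per the labels' protocols. The values are raw counts in 1 table, deposited by gene symbol and not normalised. The submitters' processing notes name HISAT2 for alignment, mm10/GRCm38 as genome and featureCounts as counter. Strand use and the treatment of reads that match several genes are not given there.

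Groups and sets came from the labels. Counts were analysed with edgeR 4.0.16 in R 4.3.3 (filterByExpr, TMM, two-sided quasi-likelihood F test, robust estimation), and genes passed at a Benjamini-Hochberg adjusted p under 0.05 over 11757 genes. The SE was taken from the log2 fold change and the root of its F value. GC content and length are medians over each gene's GENCODE transcripts, and 99.1% of tested genes had a value. The fit without the GC trend entered each library's natural splines of GC content and log2 length (4 degrees of freedom each) as offsets. Alternatives were other scalings and filters, DESeq2 1.42.0, limma-voom (limma 3.58.1), summed, thinned or deep libraries, and omitted sets and libraries. The trend of longest-coding transcripts and the trend removed with counts summed per set were added after seeing the data. The code was tested on simulated counts, in which 59 of 11654 genes changed 1.5-fold, 73 changed 2-fold and 68 changed 4-fold. With a GC trend added and removed, 5.08%, 30.1% and 80.9% of these were recovered. With no trend 6.78%, 24.7% and 76.5% were. Of unchanged genes, 0.0349% were called with no trend and 0.0524% with the trend added and removed. With the trend added and left in, 26.4% of unchanged genes were called. Far fewer genes were changed in the simulation than were called in the data, so these shares need not hold for the data. A gene that did not pass may still differ.

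Values of 1 mitochondrial gene are not reported here, although it counts in the totals. Members and lists were chosen with earlier results of these data known. Full values were given for up to 8 cytosolic and 6 mitochondrial genes with the smallest p, and for Lars2, Wars, Gars, Kars and Eprs. In other lists up to 3 with the smallest p were named, and Dars, Rars, Farsb, Mars2, Wars2, Aimp1, Eef1e1, Dtd2, Secisbp2, Ddit4, Psat1 and Atf4 are exceptions. Reads carry no molecular identifiers, so low counts limit the scarce mitochondrial genes most.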

Additional observations from a re-analysis of the deposited data

Results flagged for a closer look

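Among 74 groups of a gene and a region, 2 held a library far from the others by Dixon's criterion at the 95% level, and chance alone flags about 1 group in 20. Mars2 was at 82.4 CPM in distal library 5, against 32.7 to 44.4 CPM in the other 5 distal libraries. Fars2 was at 14.6 CPM in control library 1, against 4.02 to 7.67 CPM in the other 7 control libraries.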

How the results depend on the processing

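Iars, Sars2, Vars, Farsa, Kars, Ears2, Mars, Yars, Cars, Sars, Wars, Tars2 and Qars kept the sign of their log2 fold change in all 31 alternatives, and so did Cars2 and Fars2. The count of all genes called was 3582 with counts summed per set, 2207 without the GC trend, 1937 with the trend of longest-coding transcripts removed, 314 with the trend removed and counts summed per set, 1365 in libraries over 4000000 counts and 2300 without control set 1. Higher cytosolic genes numbered 2, 3 and 0 in the 3 fits without a trend (in the order median transcripts, longest-coding transcripts, summed per set), 1 in libraries over 4000000 counts and 5 without control set 1. The 2 were Kars and Farsa, and the 3 were Kars, Nars and Tars. Lower cytosolic genes numbered 1 in each of those 3 fits, 2 with upper-quartile scaling, 1 with counts summed per set, 2 in libraries over 4000000 counts, 1 without control set 1, 1 without distal set 1 and 2 without distal set 2. Higher mitochondrial genes numbered 1, 1 and 0 in those 3 fits, 1 in libraries over 4000000 counts and 1 without control set 1. The gene was Ears2 with median transcripts and Wars2 with longest-coding transcripts. The count of lower mitochondrial genes was 0 with upper-quartile scaling, counts summed per set, the trend removed (also summed), thinned counts, libraries over 4000000 counts and each set left out. It was 1 with the replicate block and with the trend of longest-coding transcripts removed, but there the gene was Iars2 (-0.49) and Yars2 (-0.98) in place of Mars2.

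The median of the cytosolic genes was 0.39 with upper-quartile scaling, 0.52 with counts summed per set, 0.52 without control set 1 and 0.55 without distal set 2. The mitochondrial median was 0.11, 0.23 and 0.18 in the 3 fits, 0.14 with thinned counts, 0.37 without control set 1 and 0.22 without distal set 2. Leaving out 1 library gave 4903 to 5983 genes called, 9 to 10 higher and 2 to 5 lower cytosolic genes, 6 to 7 higher and 0 to 1 lower mitochondrial genes, and medians of 0.19 to 0.36 and 0.40 to 0.81. The cytosolic median was 0.35 without control library 4, 0.36 without distal library 4 and 0.36 without distal library 5, and the lower cytosolic count was 2 without control library 2 or distal library 1, 2, 4, 5 or 6 and 3 without control library 4. Upper-quartile scaling moved the median of all genes to 0.00, and its split was 3255 higher and 2202 lower, while DESeq2 gave 3023 higher and 3479 lower, and summing the counts of each set 2206 higher and 1376 lower. The causes were not tested.

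Signs turned as follows. Without the GC trend they turned for Aars (-0.028), Dars (0.074), Eprs (0.39), Farsb (0.12), Hars (0.0043), Hars2 (0.044), Iars2 (0.083), Mars2 (0.54), Nars2 (0.40), Rars (0.46), Rars2 (0.22) and Tars (0.078). With longest-coding transcripts they turned for Aars (-0.30), Eprs (0.041), Gars (-0.012), Hars2 (0.23), Iars2 (0.12), Lars (0.12), Mars2 (0.44), Nars2 (0.42), Rars (0.0077), Rars2 (0.13) and Tars (0.36). With the trend removed and counts summed per set they turned for Aars2 (-0.086), Dars (0.064), Eprs (0.54), Farsb (0.17), Hars (0.22), Iars2 (0.18), Lars (0.12), Mars2 (0.60), Nars2 (0.41), Pars2 (-0.019), Rars (0.59), Rars2 (0.15), Tars (0.069) and Vars2 (-0.026). Elsewhere they turned for genes that had not passed: Gars with DESeq2 (-0.013), its size factors (-0.0016), no filter (-0.035) and libraries over 4000000 counts (-0.10); Hars with summed counts (0.37), the stricter filter (0.081), upper-quartile scaling (0.15), and without control set 1 (0.56) or distal set 2 (0.40). Hars2 turned in libraries over 4000000 counts (0.38), with upper-quartile scaling (0.031), and without control set 2 (0.14) or distal set 1 (0.066). Lars2 turned with summed counts (0.16) and without control set 1 (0.28) or distal set 2 (0.22), Lars without control set 1 (0.11), Nars2 in libraries over 4000000 counts (0.0070) and without distal set 1 (0.0025), and Tars with upper-quartile scaling (0.0033) and without distal set 2 (0.089). Leaving out 1 library gave -0.062 to 0.16 for Gars, -0.10 to 0.16 for Hars, -0.36 to 0.080 for Hars2 and -0.29 to 0.027 for Nars2.

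With the replicate number as a block, 5442 genes were called, 2586 higher and 2856 lower, and Gars (-0.028), Hars2 (0.016) and Nars (-0.0049) turned. Aars (0.31; edgeR adjusted p = 0.092), Cars2 (0.87; edgeR adjusted p = 0.10) and Mars2 (-0.65; edgeR adjusted p = 0.085) lost their calls, and Lars (-0.53) and Iars2 passed. Deviations of same-numbered libraries correlated at -0.017 to 0.11, and 2 of 6 numbers correlated best with their own, so the numbers were not taken as pairs. Depth limits the scarce genes: Pars2 rested on 4 to 32 counts a library and Ears2 on 7 to 36.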
